A study of Mus musculus with 2 samples.

Results

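The cells described are 500 of 4809 tumor macrophages, selected on the mRNA of *Ly6c2*, which encodes a surface protein of classical monocytes. They were chosen from the cells annotated as macrophages as those with at least 2 *Ly6c2* molecules, no molecule of *Mrc1* and fewer than 3 of *Arg1*. *Mrc1* encodes the mannose receptor CD206 and *Arg1* encodes arginase-1, both of which mark alternatively activated macrophages. Unique molecular identifiers (UMIs) tell captured mRNA molecules from their amplified copies, and every count given is of UMIs. The comparison macrophages were 914 annotated macrophages of the same libraries without *Ly6c2* and *Mrc1*, with fewer than 3 *Arg1* UMIs and at least 3000 UMIs in total. The whole series holds 38883 cells.

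Colitis-associated colorectal cancers (CACs) had been induced in female mice of C57Bl/6 background, which were 6 to 10 weeks old at the start, with the mutagen azoxymethane (AOM, 10 mg/kg) and dextran sodium sulfate (DSS), which injures the colonic epithelium. AOM preceded the first and the second DSS period by 5 days, and DSS was given in 3 cycles of 5 days at 2.5%, 2.5% and 2%, with 16 days of water after the first and the second. Mice were sacrificed on day 110. The library labelled Mir34a_F/F (*Mir34a* F/F below) came from mice with floxed *Mir34a* alleles, and the library labelled Mir34a_Mye_KO (*Mir34a* ΔMye) from mice that carry LysM-Cre in addition, a Cre recombinase inserted in *Lyz2* and active in macrophages, neutrophils and part of the monocytes. For each genotype, 6 to 8 tumors of 3 mice were pooled into 1 library. Cells were not assigned to mice, genotype and library cannot be told apart, and no test between genotypes was possible. Intervals, all at 95%, reflect counting error alone and hold no variation between mice, so no p-value is given.

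Classical monocytes leave the bone marrow through the chemokine receptor Ccr2, reach inflamed tissue with the blood and, in the gut, replace resident macrophages throughout life. On the way they lose Ly6C and gain MHC class II, complement C1q and receptors for dying cells. Blood monocytes and fresh tissue monocytes therefore share genes of adhesion and early defence, whereas tissue macrophages share genes of clearance and antigen presentation.

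Sequences of the microRNA and of some genes of these programs are given as the mouse RefSeq annotation of GRCm38.p6 (mm10) has them. The microRNA whose gene was floxed lies at chr4:150068473-150068494 on the plus strand, and capitals mark its seed, bases 2 to 8.
mmu-miR-34a-5p: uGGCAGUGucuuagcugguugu
For *Ly6c2* (chr15:75111972-75112121, minus strand) and *Plac8* (chr5:100572206-100572355, minus strand), 150 bases before the start of transcription are shown, with capitals for GAGGAA, the core bound by the myeloid factor PU.1, in either orientation.
Ly6c2: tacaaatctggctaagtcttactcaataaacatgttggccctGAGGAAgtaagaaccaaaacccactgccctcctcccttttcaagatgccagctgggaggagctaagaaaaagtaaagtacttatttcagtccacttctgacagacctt
Plac8: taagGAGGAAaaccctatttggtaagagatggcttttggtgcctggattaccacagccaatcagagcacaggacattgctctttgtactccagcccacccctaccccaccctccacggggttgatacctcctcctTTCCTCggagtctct
For the MHC class II genes *H2-Aa* (chr17:34287824-34287923, minus strand), *H2-Eb1* (chr17:34305767-34305866, plus strand) and *H2-DMb1* (chr17:34153091-34153190, plus strand), 100 bases before the start are shown, with capitals for GATTGG, the inverted CCAAT box known as the Y box of class II promoters, in either orientation.
H2-Aa: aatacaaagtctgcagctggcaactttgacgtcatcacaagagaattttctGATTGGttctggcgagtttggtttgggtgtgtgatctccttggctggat
H2-Eb1: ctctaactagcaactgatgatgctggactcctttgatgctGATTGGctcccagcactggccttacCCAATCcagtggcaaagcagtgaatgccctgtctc
H2-DMb1: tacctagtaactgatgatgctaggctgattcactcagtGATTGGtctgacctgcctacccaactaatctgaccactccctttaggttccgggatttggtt

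In promoters of 300 bases (250 before and 50 after the start), GATTGG was found on either strand in 7 of the 8 promoters of MHC class II genes and in 16.1% of all 32851 promoters. It was found in 5 of 23 promoters of classical monocyte genes and in 1 of 18 of mature macrophage genes. Among the former is *Plac8*, whose printed stretch holds it in the other orientation, as ccaatc without capitals. GAGGAA was found in 10 of 23 promoters of classical monocyte genes, in 12 of 18 of mature macrophage genes and in 28.3% of all promoters, so that it did not set the monocyte genes apart. These matches are descriptions of letters and were not tested for binding.

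Of the 2208 macrophages in the *Mir34a* F/F library 250 were *Ly6c2*-positive by this rule, 11.3% (exact binomial interval 10.0 to 12.7). In the *Mir34a* ΔMye library, 250 of 2601 were, 9.61% (8.51 to 10.8), and the intervals overlap. Such intervals count the cells of 1 library each, so overlap or its absence is no test between genotypes. *Ly6c2*-positive cells of the *Mir34a* ΔMye library held more UMIs, with a median of 13126 per cell against 6520, a ratio of 2.01 between the libraries. This ratio was 1.55 in all macrophages, 1.78 in neutrophils and 2.00 in dendritic cells. The comparison macrophages, which had at least 3000 UMIs and no UMI of *Ly6c2* or *Mrc1* by their definition, had medians of 6289 and 6275. In *Mir34a* ΔMye, the *Ly6c2*-positive cells were thus deeper than the cells they are compared with. A minimum of *Ly6c2* UMIs reaches further down in deep cells, whereas the limits on *Mrc1* and *Arg1* exclude deep cells more readily. These limits left out 61 and 103 macrophages with 2 or more *Ly6c2* UMIs, at median depths of 7470 and 16213 UMIs. When every macrophage with at least 3000 UMIs was thinned to 3000 UMIs before the rule was applied, the shares were 8.99% (7.72 to 10.4) in *Mir34a* F/F and 7.92% (6.78 to 9.18) in *Mir34a* ΔMye, and again overlapped. They did not overlap with at least 1 *Ly6c2* UMI, at 15.7% (14.2 to 17.3) and 12.0% (10.7 to 13.3), or without cells with markers of other cell types, at 14.6% (12.3 to 17.1) and 7.43% (5.07 to 10.4). This last filter, at 3 or more UMIs of such markers, removed 124 and 220 of the 250 cells, mostly for mast cell mRNAs. It left 126 *Ly6c2*-positive cells of 864 macrophages and 30 of 404. The median mitochondrial content of all *Ly6c2*-positive cells was 1.65% and 2.71%, below the 2.19% and 5.21% of comparison macrophages. The libraries share 96 cell barcodes, of which 1 belongs to a *Ly6c2*-positive cell.

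The floxed gene itself could not be checked in these cells. The primary transcript of *Mir34a* had 1 UMI in the 250 cells of *Mir34a* F/F and 6 in those of *Mir34a* ΔMye, and the features made for the other *Mir34a* transcripts and for Cre had none. *Lyz2*, the gene that carries Cre, had a level of 1.79 UMIs per 10000 in *Ly6c2*-positive cells of *Mir34a* F/F and 0.655 in those of *Mir34a* ΔMye, so that the log2 ratio between the libraries was -1.46 (-1.71 to -1.20). It was -2.72 in comparison macrophages, -1.60 in neutrophils and -1.92 in T cells. A separate feature of the counting reference joins Cre and *Lyz2* sequence and had 43 and 30 UMIs, so reads of *Lyz2* may be divided between the features and its level is uncertain. Here and below, a level is the UMIs of an mRNA summed over the cells of a group per 10000 UMIs of that group.

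The values that chose the cells are given as a description. *Ly6c2* had a median of 4 UMIs per cell in *Mir34a* F/F (quartiles 3 and 7, highest 31) and of 7 in *Mir34a* ΔMye (quartiles 4 and 13.8, highest 63). Just inside the threshold, 47 and 29 cells had exactly 2 UMIs. Just outside it, 96 and 61 macrophages that met the conditions on *Mrc1* and *Arg1* had 1 UMI, and a further 61 and 103 macrophages had 2 or more but were left out for *Mrc1* or *Arg1*. Per 10000 UMIs, the level of *Ly6c2* was 8.23 in *Mir34a* F/F and 7.69 in *Mir34a* ΔMye. *Ly6c1*, a near-identical gene that is characteristic of endothelium, had 19 and 27 UMIs, and reads of the pair may be divided between them. Outside macrophages, 2 or more *Ly6c2* UMIs were found in 14.2% and 19.8% of neutrophils, 10.7% and 14.6% of dendritic cells, and in 123 of 943 and 376 of 926 B cells, at median depths of 3664 and 20852 UMIs. In epithelial cells, which do not make the protein, the shares were 0.172% and 0.162%, at median depths of 5316 and 6623 UMIs. Among all macrophages, before the conditions on *Mrc1* and *Arg1*, they were 14.1% and 13.6%. The part of free RNA in *Ly6c2* counts was not tested.

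Both other genes that are used to mark these cells, *Ccr2* and *Plac8*, were higher in them in each library. The rule did not use them, but they were chosen as markers with earlier results of these data known and are no independent check of the name. *Ccr2*, the receptor for the chemokine Ccl2, had levels of 2.98 and 3.99 in *Ly6c2*-positive cells of *Mir34a* F/F and *Mir34a* ΔMye and of 0.777 and 1.42 in comparison macrophages, log2 ratios of 1.94 (1.72 to 2.16) and 1.49 (1.35 to 1.63). *Plac8*, a small protein of myeloid and lymphoid cells, had levels of 46.4 and 39.6 against 11.8 and 7.90, log2 ratios of 1.97 (1.92 to 2.03) and 2.33 (2.27 to 2.38). After thinning to 3000 UMIs, 96.7% and 98.8% of *Ly6c2*-positive cells held *Plac8* and 53.3% and 61.8% held *Ccr2*. In comparison macrophages these shares were 63.8% and 55.4% for *Plac8* and 15.3% and 18.9% for *Ccr2*. T cells also held *Plac8* in 54.2% and 42.8% of cells, so for *Plac8* the step lies in the amount and less in detection.

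Among 8192 genes with a mean level of at least 0.1, 160 (1.95%) were at least 2-fold higher in *Ly6c2*-positive cells than in comparison macrophages in both libraries, and 351 (4.28%) were at least 2-fold lower in both. Genes are called higher or lower below in this sense, and all ratios are log2 ratios. The median log2 ratio of all genes was -0.14 in *Mir34a* F/F and -0.15 in *Mir34a* ΔMye, so each ratio is read against a slight negative offset. Of the 8192 genes, 2139 had ratios above 0 in both libraries and 4108 below 0 in both. Of 23 classical monocyte genes tested, 18 were higher and none lower, with medians of 1.80 and 2.05, and all 23 had ratios above 0 in both libraries. This list, like the others, was chosen with earlier results of these data known, and it holds *Ccr2* and *Plac8*. These counts therefore describe the cells and are no independent check of their name. The plot of the ratios in both libraries shows the classical monocyte genes in the upper right. In the lower left lie the 7 MHC class II genes tested and 15 of the 18 mature macrophage genes, of which 2 were above 0 in both libraries.

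**Figure D1:**
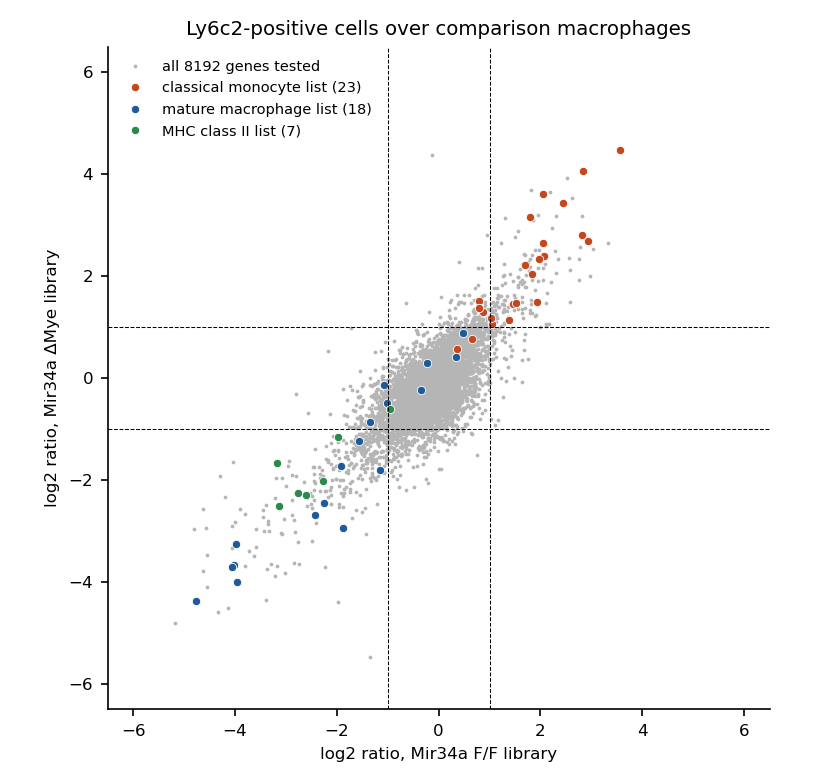
Log2 ratio of each of the 8192 genes between *Ly6c2*-positive cells and comparison macrophages in the *Mir34a* F/F library (x axis) and in the *Mir34a* ΔMye library (y axis). Grey points are all genes, coloured points are the 23 classical monocyte, 18 mature macrophage and 7 MHC class II genes tested, and dashed lines mark 2-fold. All classical monocyte genes lie above 0 on both axes.

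Genes of adhesion and matrix were among the highest-ranked. *Vcan*, the matrix proteoglycan versican, had levels of 3.36 and 3.50 against 0.440 and 0.537, and *F13a1*, a transglutaminase subunit that cross-links fibrin, 3.64 and 4.11 against 0.520 and 0.587. In T cells, after thinning, *Vcan* was found in 0.684% and 0.507% of cells and *F13a1* in 0.736% and 0.633%, against 53.3% and 45.8% (*Vcan*) and 54.5% and 54.6% (*F13a1*) of *Ly6c2*-positive cells. Both mRNAs were thus nearly absent from T cells. *Thbs1*, the adhesive glycoprotein thrombospondin 1, was abundant, with levels of 37.6 and 29.1 against 13.6 and 10.5. Of 17 genes for adhesion tested, 5 were higher and 2 lower. *Itgb7*, the beta chain of gut-homing integrins, had levels of 1.03 and 1.26 against 0.266 and 0.337, log2 ratios of 1.95 and 1.90. *Emilin2*, an extracellular glycoprotein, had levels of 4.88 and 4.84 against 1.73 and 1.63. *Itgax*, which encodes CD11c of macrophages and dendritic cells, was lower, at 0.253 and 0.317 against 1.79 and 1.51.

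*Chil3*, a chitinase-like protein of monocytes and neutrophils, had levels of 9.57 and 8.51 in *Ly6c2*-positive cells against 2.31 and 0.692 in comparison macrophages. Its log2 ratio was 2.05 in *Mir34a* F/F and 3.62 in *Mir34a* ΔMye. Between the libraries, its log2 ratio was -1.74 in comparison macrophages and -0.17 in *Ly6c2*-positive cells. *Hp*, the haemoglobin-binding protein haptoglobin, showed the same arrangement, with 4.55 and 4.28 against 1.31 and 0.477. *Ifitm6*, of the interferon-induced transmembrane family, had log2 ratios of 2.83 (2.55 to 3.12) and 4.06 (3.76 to 4.39). *Mgst1*, a microsomal glutathione transferase, had ratios of 2.45 and 3.43, *S100a4*, a calcium-binding protein of motile cells, 2.07 and 2.39, and *Cd93*, a receptor of monocytes and endothelium, 2.30 and 2.06. *Slpi*, a secreted inhibitor of leukocyte proteases, had levels of 18.9 and 11.7 against 5.25 and 1.36. *Ms4a4c*, a tetraspanning membrane protein (2.05 and 2.66), and *Dmkn* (2.30 and 3.19) were also among the 10 highest-ranked genes. Classical monocyte genes that stayed below 2-fold in a library were *Ms4a6c* (0.79 and 1.38), *Msrb1* (0.87 and 1.29), *Sirpb1c* (0.80 and 1.51), *Emb* (0.66 and 0.77) and *Fn1* (0.36 and 0.57).

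**Figure D2:**
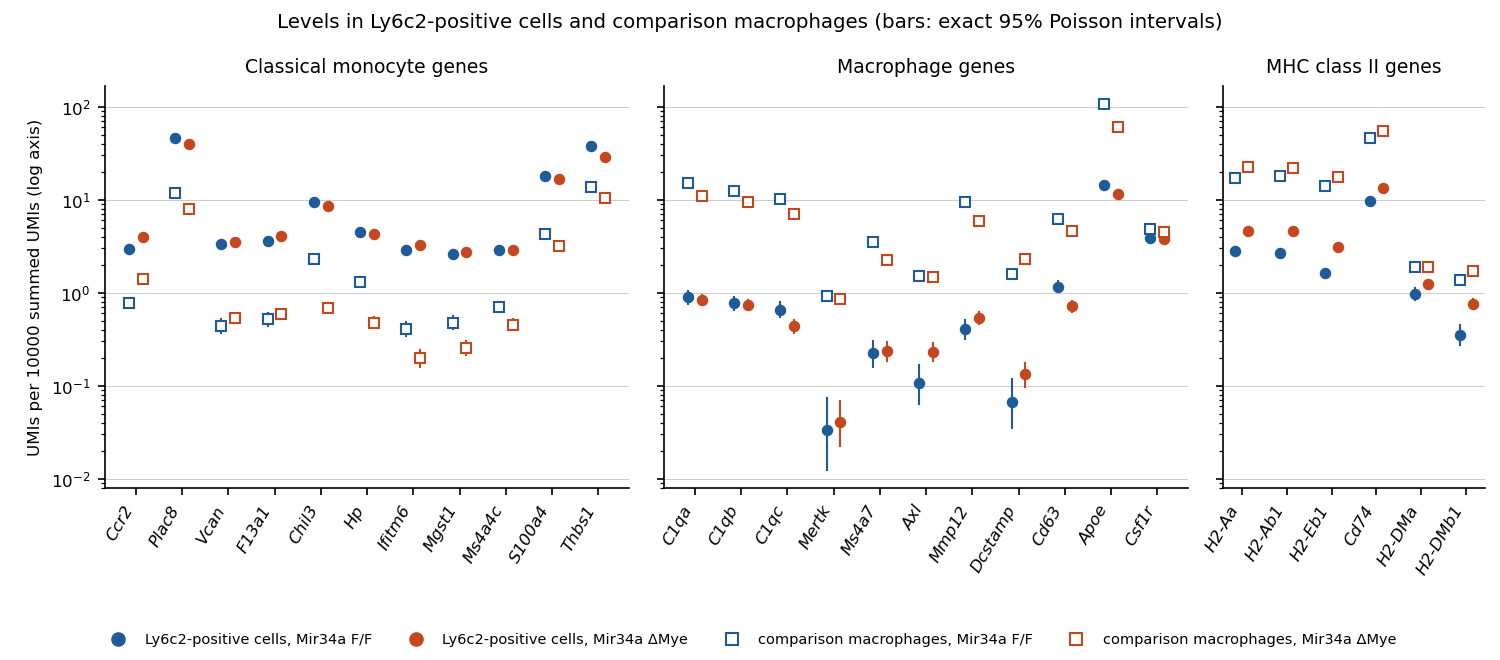
Levels of named genes in UMIs per 10000 summed UMIs (log axis) in *Ly6c2*-positive cells (filled circles) and comparison macrophages (open squares) of the *Mir34a* F/F (blue) and *Mir34a* ΔMye (orange) libraries, with exact 95% Poisson intervals as bars. Circles lie above squares for the monocyte genes shown, and below them for the macrophage and MHC class II genes shown.

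The macrophage program was low. Of 18 mature macrophage genes tested, 11 were lower and none higher, with medians of -1.72 and -1.76. The chains of C1q, the complement component that tags dying cells, ranked 2 to 4 among the lower genes, after *Dcstamp*. *C1qa* had levels of 0.900 and 0.838 in *Ly6c2*-positive cells of *Mir34a* F/F and *Mir34a* ΔMye against 15.0 and 11.0 in comparison macrophages, log2 ratios of -4.06 (-4.30 to -3.83) and -3.71 (-3.89 to -3.54). *C1qb* had ratios of -4.01 and -3.68 and *C1qc* of -3.96 and -4.00. What remained was uneven, since 1 cell held 45.6% of the *C1qa* UMIs of *Ly6c2*-positive cells in *Mir34a* F/F and 22.2% in *Mir34a* ΔMye.

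After thinning to 3000 UMIs, 30.5% and 26.9% of *Ly6c2*-positive cells held a UMI of any C1q chain, against 63.1% and 69.9% of comparison macrophages. T cells, which do not make C1q, held one in 31.2% and 32.8% of cells. The share of *Ly6c2*-positive cells with C1q was thus no higher than in T cells, although single cells held up to 20 and 21 C1q UMIs, and the part of free RNA was not tested. *Mertk*, a receptor for the uptake of apoptotic cells, was found in 0.813% and 0.803% of them, at or below T cells (1.42% and 1.65%), and *Axl*, the related receptor, in 2.03% and 2.81%, against 2.68% and 3.67% of T cells. In comparison macrophages, *Mertk* was found in 17.7% and 12.2% of cells and *Axl* in 24.8% and 24.5%. T cells that were left out for having fewer than 3000 UMIs numbered 1187 and 280, and 4 and 1 *Ly6c2*-positive cells were left out. The median depth of all T cells was 3548 and 8043 UMIs.

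Further genes of the 10 lowest-ranked were *Mmp12*, macrophage elastase (levels of 0.405 and 0.538 against 9.40 and 5.95), *Ms4a7*, a membrane protein of tissue macrophages (0.225 and 0.236 against 3.53 and 2.25), and *Dcstamp*, which is needed for the fusion of macrophages (0.0675 and 0.134 against 1.58 and 2.30). *Itga9*, *Tbc1d4* and *Cadm1* had log2 ratios between -2.74 and -3.83 in both libraries. *Apoe*, the lipid carrier apolipoprotein E, had levels of 14.4 and 11.5 against 106 and 60.3, and T cells had 6.57 and 4.35. *Cd63*, a lysosomal membrane protein, had levels of 1.16 and 0.716, next to 1.17 and 0.812 in T cells. Of 12 genes of lipid-associated macrophages, 4 were lower and none higher.

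*Csf1r*, the receptor for the growth factor Csf1, had levels of 3.89 and 3.79 in *Ly6c2*-positive cells and 4.90 and 4.46 in comparison macrophages, log2 ratios of -0.34 and -0.23. It was found in 68.3% and 62.7% of thinned *Ly6c2*-positive cells, 68.4% and 61.2% of comparison macrophages and 4.94% and 6.21% of T cells. *Cd68*, a lysosomal protein, had -0.23 and 0.30, and *Fcgr1*, the high-affinity IgG receptor CD64, 0.48 and 0.89. *Spi1*, which encodes PU.1, had 0.40 and 0.64, and *Irf8*, a factor of monocytes and dendritic cells, -0.61 and -0.48. Among 27 transcription factor genes tested, *Cebpb*, which drives monocyte survival and inflammatory genes, was higher (15.4 and 16.7 against 7.68 and 6.59) and *Cebpa* lower (0.253 and 0.195 against 0.554 and 0.447).

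Genes of nonclassical monocytes, which patrol vessels and have little Ly6C, differed less than those of classical monocytes. Of 12 tested, 10 had ratios above 0 in both libraries and 2 below, with medians of 0.52 and 0.40, but none was at least 2-fold higher in both and 2 were lower. *Cx3cr1*, the fractalkine receptor of nonclassical monocytes and gut macrophages, had levels of 0.990 and 0.753 against 2.51 and 1.81, and *Cd36*, a scavenger receptor, 0.270 and 0.163 against 1.51 and 1.49. *Klf4* had ratios of 0.16 and 0.28. Of 13 cell cycle genes tested, none was higher and 3 were lower, among them *Mki67* (-1.21 and -1.07).

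Of 16 chemotactic receptor genes tested, 1 was higher and 4 lower, and 8 had ratios above 0 and 8 below 0 in both libraries. Of 19 genes of the oxidase and of antimicrobial defence, 2 were higher and 1 lower. Of 16 stress genes 1 was higher and 12 had ratios above 0 in both libraries, with medians of 0.28 and 0.65. Of 15 glycolysis genes none was called in either direction, and 12 had ratios below 0 in both libraries. These counts are read against all 8192 genes, of which 2139 were above 0 and 4108 below 0 in both libraries. Alternative activation was represented by 4 tested genes besides *Mrc1* and *Arg1*, of which 1 was higher and 1 lower. Of 8 genes of resident macrophages, only 2 were abundant enough to be tested.

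MHC class II genes were lower in *Ly6c2*-positive cells. Of 7 tested, 6 were lower and none higher, with medians of -2.60 and -2.03. *H2-Aa*, the alpha chain of I-A, had levels of 2.85 and 4.62 in *Ly6c2*-positive cells of *Mir34a* F/F and *Mir34a* ΔMye against 17.3 and 22.5, and *H2-Ab1*, its beta chain, 2.65 and 4.64 against 18.0 and 22.0. *H2-Eb1*, the beta chain of I-E, had 1.63 and 3.10 against 14.2 and 17.8, and *Cd74*, the invariant chain, 9.66 and 13.4 against 46.6 and 54.5. *H2-DMb1*, which helps to load peptides, had 0.354 and 0.756 against 1.38 and 1.70.

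Class II mRNA was concentrated in part of the cells. After thinning, a UMI of *H2-Aa*, *H2-Ab1* or *H2-Eb1* was found in 46.3% and 59.0% of *Ly6c2*-positive cells, in 46.9% and 57.5% of T cells and in 74.3% and 87.8% of comparison macrophages. The share of *Ly6c2*-positive cells with any such UMI thus differed little from that of T cells in either library. With 3 or more UMIs of these genes, the shares were 13.4% and 20.9% of *Ly6c2*-positive cells, 6.37% and 10.3% of T cells and 50.7% and 64.1% of comparison macrophages. Cells with 3 or more such UMIs were thus a minority of *Ly6c2*-positive cells and of T cells, and more frequent among the former. Single *Ly6c2*-positive cells held up to 68 and 67 of these UMIs, and single T cells up to 23 and 31. The summed level of conventional dendritic cell genes was 0.731 and 0.829, against 17.2 and 19.6 in annotated dendritic cells. *Flt3*, a defining receptor of dendritic cells, had 5 and 30 UMIs.

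Levels were then followed along the *Ly6c2* count. Median depth also increased with this count, from 5812 and 10305 UMIs in cells with 1 *Ly6c2* UMI to 7617 and 13076 in cells with 10 or more. *F13a1* had levels of 0.520 in comparison macrophages and 1.37, 2.88, 2.84, 3.89 and 5.42 in cells with 1, 2, 3 to 4, 5 to 9 and 10 or more *Ly6c2* UMIs in *Mir34a* F/F. In *Mir34a* ΔMye these were 0.587, 1.46, 1.63, 2.81, 4.45 and 5.15. *Vcan* had 0.440 in comparison macrophages and 1.65, 3.34, 2.95, 3.47 and 3.94 in *Mir34a* F/F, and 0.537, then 1.87, 1.66, 2.04, 3.52 and 4.68 in *Mir34a* ΔMye. Both genes were thus highest where *Ly6c2* was highest, although the intervals of *Vcan* in *Mir34a* F/F overlap from 2 *Ly6c2* UMIs on. *Plac8* differed in shape between the libraries. In *Mir34a* F/F it stood at 50.5 in cells with 2 *Ly6c2* UMIs and 50.6 in cells with 10 or more. In *Mir34a* ΔMye it was 24.5, 32.3, 37.6, 40.0 and 42.4 from 1 *Ly6c2* UMI to 10 or more, highest where *Ly6c2* was highest.

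The class II genes ran the other way in *Mir34a* ΔMye. The sum of *H2-Aa*, *H2-Ab1* and *H2-Eb1* was 62.3 in comparison macrophages and 38.8, 27.3, 14.6, 13.8 and 5.88 along the same classes. In *Mir34a* F/F it was 49.5, then 26.2, 4.46, 8.34, 9.31 and 2.83, with the step between 1 and 2 UMIs. Macrophages just outside the threshold, with 1 *Ly6c2* UMI, lay between the groups for C1q (14.7 and 11.4, against 37.7 and 27.5 in comparison macrophages) and for *Apoe* (42.5 and 30.7). Macrophages left out for *Mrc1* or *Arg1* despite 2 or more *Ly6c2* UMIs had class II sums of 25.6 and 37.4 and C1q sums of 14.1 and 16.6.

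**Figure D3:**
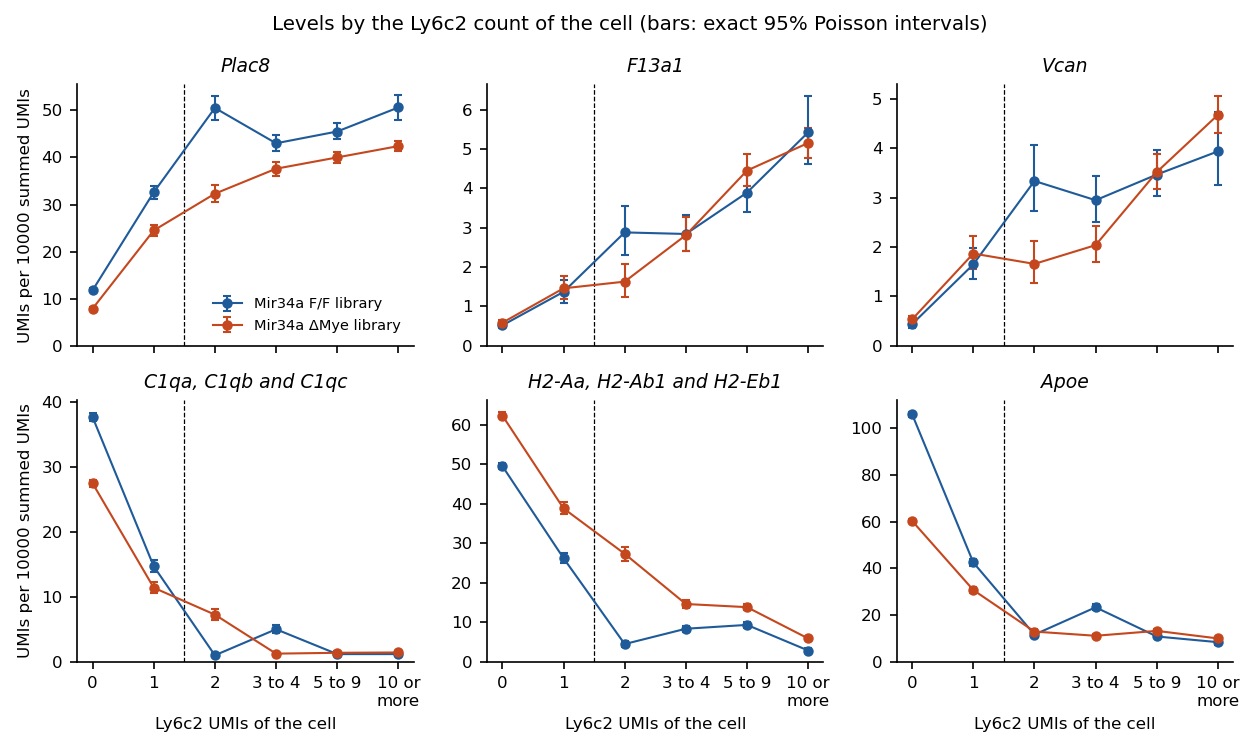
Levels in UMIs per 10000 summed UMIs (y axes, from 0) by the *Ly6c2* UMIs of the cell (x axis), for the *Mir34a* F/F (blue) and *Mir34a* ΔMye (orange) libraries, with exact 95% Poisson intervals as bars and a dashed line at the threshold of the rule. *F13a1* and *Vcan* are highest in cells with 10 or more *Ly6c2* UMIs, where the sum of the class II genes is lowest.

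Chemokine genes moved in both directions. Of 19 tested, 3 were higher and 8 lower. *Ccl2*, the ligand of Ccr2, had levels of 2.59 and 2.82 against 0.669 and 0.559, log2 ratios of 1.96 and 2.33. *Ccl6* had levels of 6.00 and 5.99 against 2.51 and 1.50, and *Ccl9*, which is close to it in the genome, 3.87 and 4.23 against 1.41 and 1.12. Among the lower, *Cxcl9*, an interferon-induced attractant of T cells, had 0.315 and 0.207 against 0.889 and 1.28, and *Cxcl16*, a scavenger-receptor chemokine, 1.32 and 1.22 against 4.37 and 3.91. *Cxcl14* had ratios of -2.82 and -3.03. *Cxcl2*, an attractant of neutrophils, was abundant in both groups, with levels of 103 and 80.8 against 63.0 and 47.5 (ratios of 0.72 and 0.77).

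*Il1b*, interleukin 1 beta, had levels of 34.5 and 37.4 against 24.2 and 26.7, ratios of 0.51 and 0.49, and was found in 88.6% and 92.8% of thinned *Ly6c2*-positive cells against 79.9% and 73.7% of comparison macrophages and 20.6% and 23.1% of T cells. With 3 or more UMIs, the shares were 72.8% and 81.9% of *Ly6c2*-positive cells and 60.2% and 48.0% of comparison macrophages. From 1 *Ly6c2* UMI to 10 or more, levels of *Il1b* were 40.9, 43.2, 37.9, 33.8 and 20.2 in *Mir34a* F/F. In *Mir34a* ΔMye they were 46.5, 40.8, 44.9, 37.8 and 32.6. Macrophages left out for *Mrc1* or *Arg1* despite 2 or more *Ly6c2* UMIs had 42.4 and 46.3. *Tnf* had ratios of -0.25 and -0.21. Of 15 inflammatory cytokine genes tested, 1 was higher and 2 lower. The higher was *Osm*, oncostatin M, a cytokine that acts on stroma and epithelium, with levels of 3.71 and 4.49 against 1.07 and 1.77. *Il23a*, a subunit of interleukin 23, was among the lower (-1.43 in both libraries). Of 18 interferon-stimulated genes, 3 were higher and 1 lower. The higher were *Ifi204*, a DNA-binding protein (1.31 and 1.53), *Zbp1*, a nucleic acid sensor (1.31 and 1.87), and *Ifi47*, an interferon-induced GTPase (1.63 and 1.50). *Clec4n*, which encodes the fungal receptor Dectin-2, was lower, at 1.39 and 1.41 against 6.25 and 4.42.

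Part of the neutrophil-type signal rested on few cells. Of 12 neutrophil genes tested, 4 were higher and 1 lower. *S100a8*, a subunit of calprotectin, had levels of 10.8 and 8.63 against 3.45 and 3.83, ratios of 1.65 and 1.17. Yet 6 and 5 cells with over 100 *S100a8* and *S100a9* UMIs per 10000 held 64.3% and 82.0% of its UMIs in *Ly6c2*-positive cells. Without such cells in either group, a filter added after the data were seen, the levels were 3.99 against 1.88 in *Mir34a* F/F and 1.60 against 1.58 in *Mir34a* ΔMye. The call of *S100a8* as higher thus did not hold in *Mir34a* ΔMye. In *Mir34a* F/F, its ratio was 0.64 by the rule on thinned cells. The summed level of the neutrophil list was 33.0 and 29.4, against 1661 and 1241 in neutrophils, and *Ly6g*, a defining marker, had 40 and 44 UMIs. *Mmp8*, a collagenase stored by neutrophils, had ratios of 2.53 and 3.93.

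The *Ly6c2*-positive cells of the libraries were compared next, for the question whether deletion of *Mir34a* by LysM-Cre came with a difference in monocyte mRNAs. Among 7838 genes tested, 70 (0.893%) were at least 2-fold higher in *Mir34a* ΔMye and 160 (2.04%) at least 2-fold lower, with 1 library each and no replicate check. The median log2 ratio of all genes was -0.02. Classical monocyte genes hardly differed, with 12 of 23 above 0, 11 below, a median of 0.01 and none past 2-fold. *Vcan* had a ratio of 0.06, *F13a1* of 0.18, *Plac8* of -0.23 and *Ccr2* of 0.42 (0.28 to 0.57). *Ccr2* was also higher in *Mir34a* ΔMye in comparison macrophages (0.87) and T cells (0.78).

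MHC class II genes were higher in *Ly6c2*-positive cells of *Mir34a* ΔMye, but this depended on how the cells were chosen. All 6 tested had ratios above 0, with a median of 0.75, and 1 passed 2-fold. *H2-Aa* had a log2 ratio of 0.70 (0.55 to 0.84), *H2-Ab1* of 0.81 (0.66 to 0.96), *H2-Eb1* of 0.93 (0.74 to 1.12) and *Cd74* of 0.47 (0.39 to 0.55). In comparison macrophages, these were 0.38, 0.29, 0.33 and 0.23, and in neutrophils 0.84, 0.79, 0.63 and 0.55. When cells were chosen by the same rule after thinning to 3000 UMIs, an alternative added after the data were seen, the ratios were 0.20, 0.13, 0.07 and 0.12. With at least 3 *Ly6c2* UMIs, *H2-Aa* had 0.36 and *H2-Eb1* 0.57. When the *Ly6c2*-positive cells were kept and their counts thinned to 3000 UMIs, the ratios were 0.88, 0.81, 0.74 and 0.50. The ratio of these genes between the libraries thus differed with the cells chosen, and the part of depth in it was not tested further. *H2-DMb1*, with 63 and 260 UMIs, had a ratio of 1.09 (0.69 to 1.51) but was below 2-fold under the rule on thinned cells (0.90), without cells with markers of other types (0.93) and with a pseudocount of 1 (0.37).

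*Cd83*, a surface protein of activated antigen-presenting cells, depended less on how the cells were chosen. Its level was 1.73 in *Mir34a* F/F and 4.22 in *Mir34a* ΔMye, a log2 ratio of 1.28 (1.11 to 1.47), and 1.31 under the rule on thinned cells. With a pseudocount of 1 it was below 2-fold (0.93). The ratio was 0.38 in comparison macrophages, 1.07 in neutrophils and 0.79 in T cells, so part of it was found in cell types outside the monocytes and macrophages. *Mef2c*, a transcription factor of myeloid and lymphoid cells, had levels of 0.371 and 0.913, a ratio of 1.30 (0.91 to 1.70). It was 0.60 under the rule on thinned cells and -0.26 without cells with markers of other types. *Ifi205* (0.720 and 1.46, ratio 1.02) and *Gbp2* (0.473 and 0.951, ratio 1.01), both induced by interferon, had ratios of 0.36 and 0.47 in comparison macrophages. *Acod1*, which makes itaconate in activated myeloid cells, had a ratio of 0.91.

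*Gm15564*, which has no assigned function, had levels of 0.467 and 1.43 (ratio 1.62), and its ratio was 1.95 in comparison macrophages, 1.58 in neutrophils and 1.48 in T cells. *Lars2*, the mitochondrial leucyl-tRNA synthetase, had levels of 3.26 and 7.50 (ratio 1.20, against 1.58 in comparison macrophages and 0.99 in neutrophils). *Cdk8*, a kinase of the Mediator complex, had levels of 2.29 and 4.63 and a ratio of 1.02 (0.86 to 1.18), next to 1.28 in comparison macrophages and 0.92 in neutrophils. Lower in *Mir34a* ΔMye were *Ccdc162* (1.43 and 0.404, ratio -1.83), with -1.39 in neutrophils and -1.51 in T cells, *Ptn*, the growth factor pleiotrophin (ratio -1.76, and -1.60 in neutrophils), *Mgp*, matrix Gla protein (-1.35, and -1.04 in neutrophils), and *Mt4*, a metallothionein of squamous epithelium (-1.33). Of the UMIs of *Ptn* and *Mgp* in *Mir34a* F/F, 1 cell held 38.6% and 35.1%. *Mt4* had levels of 1.48 and 0.588, next to 1.67 and 0.818 in T cells.

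For some chemokines, 1 cell held a large part of the UMIs. *Ccl22* had 38 UMIs in *Mir34a* F/F and 8 in *Mir34a* ΔMye, a log2 ratio of -3.20, but 65.8% of the 38 UMIs came from 1 cell. *Ccl17* had 40 and 24 UMIs (ratio -1.69), of which 1 cell held 62.5% and 79.2%. *Ccl12* (ratio -1.21) had 80.6% of its UMIs of *Mir34a* F/F in 1 cell. *Stfa2l1*, a stefin of neutrophils, had 3 and 168 UMIs, with 61.3% of the latter in 1 cell. In each of these cases, 1 cell thus held most of the UMIs of a library. Without cells with T or B cell markers, an alternative added after the data were seen, the ratio of *Ccl22* was -1.63, and by the rule on thinned cells it was 1.84. That of *Stfa2l1* was 4.86 (3.28 to 7.15), and 2.13 without the cells rich in *S100a8* and *S100a9*.

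**Figure D4:**
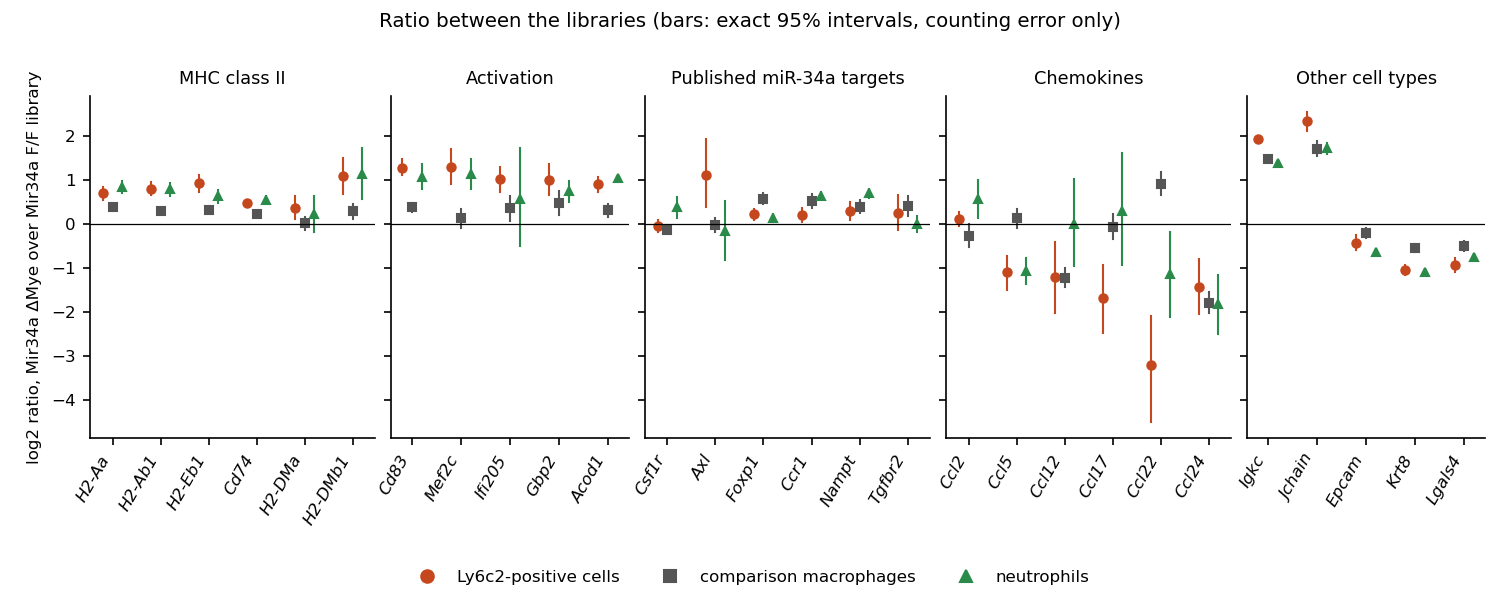
Log2 ratio of the *Mir34a* ΔMye over the *Mir34a* F/F library (y axis) for named genes (x axis) in *Ly6c2*-positive cells (orange circles), comparison macrophages (grey squares) and neutrophils (green triangles), with exact 95% intervals for counting error as bars. *Igkc* is above 0 and *Krt8* below 0 in all 3 groups, and the wide bars of the chemokines reflect few UMIs.

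Of the genes known to be repressed by miR-34a that the study followed in macrophages, 5 of 6 had ratios above 0 in *Ly6c2*-positive cells, with a median of 0.24, and 1 passed 2-fold. The study chose these genes on the same libraries, so their direction is not independent evidence. *Foxp1*, a transcription factor, had a ratio of 0.23 (0.10 to 0.35), *Ccr1*, a chemokine receptor, 0.21, *Nampt*, an enzyme of NAD synthesis, 0.30, and *Tgfbr2*, a receptor for TGF-beta, 0.26. *Csf1r* had -0.04 (-0.17 to 0.10), and -0.23 after thinning, -0.24 without cells with markers of other types and -0.19 by the rule on thinned cells. *Axl* had 19 and 80 UMIs, a ratio of 1.12 (0.39 to 1.93), at a detection no higher than in T cells. It was below 2-fold after thinning to 3000 UMIs (0.47), with at least 3 *Ly6c2* UMIs (0.82) and with a pseudocount of 1 (0.16). In comparison macrophages, the ratios of *Csf1r*, *Axl*, *Foxp1*, *Ccr1*, *Nampt* and *Tgfbr2* were -0.14, -0.02, 0.57, 0.53, 0.40 and 0.42. Of 12 other published targets tested, 11 had ratios above 0 in *Ly6c2*-positive cells, with a median of 0.37 and none past 2-fold. The study names some of these, such as *Cd44*, on the same libraries, so this direction is not independent evidence either. The summed level of the 6 named targets was 12.5 and 14.0 in *Ly6c2*-positive cells and 7.28 and 8.60 in T cells. It was 5.23 and 4.52 in epithelial cells and 9.69 and 6.57 in B cells. For the other targets, the sums were 22.9 and 30.1, 11.2 and 13.7, 8.21 and 6.89, and 6.15 and 6.88 in the same order. *Cd44*, the hyaluronan receptor, had levels of 16.3 and 21.7 (ratio 0.41, and 0.82 in comparison macrophages). Of 7836 genes, without those used by the rule, 3725 were above 0 and 4111 below.

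mRNAs of other cell types moved between the libraries in the *Ly6c2*-positive cells too. All 10 epithelial genes tested had ratios below 0, with a median of -0.89 and 4 past 2-fold, and their summed level was 28.1 in *Mir34a* F/F and 15.5 in *Mir34a* ΔMye. In neutrophils the sum was 54.9 and 31.4. *Krt8*, a keratin, had levels of 6.69 and 3.25, and 9.48 and 4.44 in T cells. Of 11 immunoglobulin genes tested, 9 were higher in *Mir34a* ΔMye, with a median of 1.93 and summed levels of 20.2 and 66.2, next to 21.4 and 53.0 in neutrophils. *Igkc*, the kappa light chain, had levels of 8.92 and 33.9, and *Jchain*, which joins antibody units, 1.09 and 5.52. *Cd3e* of T cells had 36 and 56 UMIs and *Cd79a* of B cells 20 and 41, and 19 and 20 *Ly6c2*-positive cells carried 3 or more UMIs of T or B cell markers. The part of these mRNAs in the other differences between the libraries was not tested.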

How the data were processed

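Droplet-based single-cell RNA sequencing was performed on pooled tumors, with 1 library for each of 2 genotypes. The authors counted UMIs with Cell Ranger 7.2.0 against mm10, kept cells with more than 200 mRNAs and under 25% mitochondrial content, removed doublets with Scrublet and normalized with LogNormalize of Seurat. The values the authors deposited are on a natural log scale, as the log of the UMIs of a gene per 10000 of the cell after addition of 1, for 32291 genes and 38883 cells, together with a library and cell type for each cell, which were used as given. The log was undone and each value was expressed in multiples of the lowest value above 0 in the same cell, which gave whole UMI counts for all 96847573 values (largest deviation 1.5e-10). By these counts, 1 and 4 *Ly6c2*-positive cells of the libraries labelled Mir34a_F/F and Mir34a_Mye_KO were at 25% mitochondrial content or above. So were 10 of 412 and 49 of 502 comparison macrophages.

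The UMIs of a gene were summed over the cells of a group and given per 10000 UMIs. Intervals at 95% were exact Poisson intervals for levels, exact conditional binomial intervals for ratios of summed UMIs and exact Clopper-Pearson binomial intervals for shares. With 1 library per genotype and cells not being replicates, no test was made, and genes were called by size: at least 2-fold in both libraries against comparison macrophages, or at least 2-fold between the libraries, among genes with a mean level of at least 0.1. A count of 0 was set to 3 counts for ratios. *Ly6c2*, *Mrc1* and *Arg1* were left out of the comparison with comparison macrophages. The calculation was tested on simulated Poisson counts of summed UMIs at the depths of these groups. Uneven counts between cells were not simulated, so this checks the calculation and not whether the intervals hold for these cells. Total UMIs of *Ly6c2*-positive cells were 1777479 and 3437582, so that mRNAs with a handful of UMIs are imprecise, more so in the library labelled Mir34a_F/F. In these libraries, fewer cells that express an mRNA and less mRNA per cell cannot be told apart from levels alone.

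Named genes are the 10 with the largest ratios in each direction against comparison macrophages and the 5 between the libraries, among genes found in at least 25% of cells with a level of at least 0.5, and genes of lists of monocyte, macrophage and defence functions. Immunoglobulin, mitochondrial and ribosomal RNA-like genes, 409 in all, were left out of the ranks. The cells, lists and markers were chosen with earlier results of these data known. Not every gene that meets these rules is reported here. *Stfa2l1* was named after its values were seen. Alternatives were a pseudocount of 1, the mean over cells, cells thinned to 3000 UMIs, other minimum levels, stricter cell filters, other *Ly6c2* thresholds, totals without the 409 genes and removal of cells with markers of other types. Calculations were made in Python 3.11.15, with pandas 2.3.3 for tables, numpy 2.4.6 and scipy 1.17.1 for intervals, and matplotlib 3.10.9 for plots.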

Additional observations from a re-analysis of the deposited data

How the results depend on the processing

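The 160 genes higher and 351 lower in *Ly6c2*-positive cells than in comparison macrophages became 29 and 30 with a pseudocount of 1 UMI per 10000, 83 and 128 at a mean level of at least 0.5, and 325 and 918 without a filter on low levels. Between the libraries, 70 higher and 160 lower genes became 3 and 1 with the pseudocount, 13 and 21 at a mean level of at least 0.5, 788 and 1618 without a filter, 224 and 422 after thinning to 3000 UMIs, and 394 and 676 without cells that carry 3 or more UMIs of markers of T cells, B cells, mast cells or plasmacytoid dendritic cells. That last filter removed 124 and 220 of the 250 cells, mostly for mast cell mRNAs. The share among macrophages, 11.3% in *Mir34a* F/F and 9.61% in *Mir34a* ΔMye, was 15.7% and 12.0% with at least 1 *Ly6c2* UMI, 9.19% and 8.50% with at least 3, 8.99% and 7.92% by the rule on thinned cells, 13.4% and 12.2% among macrophages with at least 3000 UMIs, and 14.6% and 7.43% without cells with markers of other types.

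Over 13 alternatives, 3025 of 3899 ratios of named genes moved by less than their counting interval. Another 868 moved further, and 6 that had been past 2-fold changed sign. A change of the minimum level cannot move a ratio, so the 300 of 300 unmoved ratios of each such alternative were fixed in advance. Leaving out the 4 and 1 *Ly6c2*-positive cells under 3000 UMIs also left 300 of 300 unmoved. Ratios below 2-fold that changed sign, such as *S100a8* between the libraries (0.70 by the rule on thinned cells), are counted by the size of their move. *Ccl17* between the libraries was 0.30 after thinning and 3.86 without cells with markers of other types, where its ratio to comparison macrophages in *Mir34a* ΔMye was 3.90. *Ccl22* between the libraries was 0.00 and *Mef2c* -0.26 under that filter, and *Ccl22* was 1.84 by the rule on thinned cells. The removal of T and B cell markers, of cells rich in *S100a8* and *S100a9* and the rule on thinned cells for gene levels were chosen after seeing the data. The cause of these changes was not tested. No paired analysis was possible because each genotype has 1 library and the labels give no replicate numbers. Depth limits mRNAs such as *Mertk*, with 6 and 14 UMIs in *Ly6c2*-positive cells.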

Other observations

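Further groups of genes in the *Ly6c2*-positive cells are given as values, as log2 ratios of the library labelled Mir34a_Mye_KO over that labelled Mir34a_F/F. All 10 cell cycle genes tested had ratios below 0, with a median of -0.36 and 1 past 2-fold. Of 15 glycolysis genes, 3 were above 0 and 12 below, with a median of -0.20. Of 27 transcription factor genes of monocytes and macrophages, 23 were above 0 and 4 below, with a median of 0.23 and none past 2-fold. Of 13 mitochondrially encoded genes, 12 were above 0, with a median of 0.40. These shifts were not particular to the *Ly6c2*-positive cells. In neutrophils of *Mir34a* F/F and *Mir34a* ΔMye, summed levels were 10.6 and 7.73 (cell cycle) and 37.5 and 34.9 (glycolysis). They were 51.1 and 66.7 for transcription factors and 500.1 and 774 for mitochondrial genes. T cells had 17.7 and 14.1, 30.1 and 26.2, 48.5 and 57.4, and 418 and 595 in the same order. Transcription factor sums were lower in *Mir34a* ΔMye in epithelial cells (22.8 and 19.6) and B cells (21.4 and 15.7). *Ccr7*, a receptor that guides antigen-presenting cells to lymph nodes, had 18 and 91 UMIs and a ratio of 1.39, next to 1.17 in comparison macrophages.

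After thinning to 3000 UMIs, 2.44% and 5.62% of *Ly6c2*-positive cells held none of *Vcan*, *F13a1*, *Chil3*, *Ifitm6* and *Mgst1*. The shares were 57.5% and 71.3% of comparison macrophages and 93.8% and 96.1% of T cells. In comparison macrophages, monocyte mRNAs were thus found without *Ly6c2* in a sizeable part of the cells. Without a UMI of C1q or class II genes, they were found in 8.50% and 2.39% of comparison macrophages. The shares of *Ly6c2*-positive cells were 37.4% and 31.7%.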
